A study of Homo sapiens with 17 samples.

Results

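HepG2 cells grown for 4 days with 10 µM 5-azacytidine were compared with the same cells grown with 2 µM, by RNA-seq, in 3 libraries at each dose. These are 6 of the 17 libraries of the study, and the comparison covers every gene of the raw count table, 63187 in all, of which 18999 passed a filter on low counts and were tested. HepG2 is an established human liver tumour line, labelled wild type and hepatocyte, so that all groups share a single tumour genome and hold no normal liver tissue. The drug was added to DMEM with fetal bovine serum, penicillin and streptomycin, the medium was changed each day, and both groups differ, per the labels, in the drug's concentration alone. Another 3 libraries at 0 µM entered the fit for its estimate of spread, and their levels are given as a reference. The 8 ATAC-seq libraries of the study (3 at 0 µM, 3 at 2 µM, 2 at 10 µM), in which a transposase cuts open chromatin, were used for the promoters of the genes described.

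5-Azacytidine is an analogue of cytidine. After phosphorylation most of it is built into RNA and a smaller share, reduced by ribonucleotide reductase, into DNA, where it holds DNA methyltransferases in covalent bonds so that methylation is lost as cells divide. Low concentrations are used to remove methylation, and higher ones also damage DNA and disturb RNA and protein synthesis. The liver character of HepG2 rests on a network of transcription factors such as HNF4A and FOXA1, which drive genes for plasma proteins, lipoproteins and bile acid handling.

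Levels are CPM, the share of a library's counts scaled to a common library size. A change is the log2 of the level at 10 µM over that at 2 µM, with the standard error (SE) of the fit and a p-value of edgeR's quasi-likelihood test adjusted over all genes. The words rose and fell are kept for genes with an adjusted p under 0.05. Total counts were 40104508, 41067431 and 44880960 in 2 µM replicates 1 to 3 and 39904820, 46430168 and 45702708 in 10 µM replicates 1 to 3, so that counting error is small for all but genes of a few counts. The labels number the libraries as replicates and do not say whether each came from a culture of its own, so a p-value measures only the spread between these libraries. Correlations of log CPM across genes were 0.982 to 0.988 among the 2 µM libraries and 0.991 to 0.996 among the 10 µM libraries, against a median of 0.937 between the doses, a description in which genes are not independent replicates. Replicate 3 at 2 µM stood apart in 0.232% of counts from mitochondrial mRNA, against 0.0866% and 0.0883% in the other 2 µM libraries and 0.110% to 0.143% at 10 µM. RN7SL1, an abundant cytoplasmic RNA, held 1.01% of that library's counts, against 3.17% and 3.72% in the other 2 µM libraries and 1.03% to 2.63% at 10 µM. Where leaving out this or another library moved the change or fold given for a gene by over 1.5 times, the value without it stands beside it.

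The 2 doses left the cells with very different RNA. Of 18999 genes tested, 3193 rose (16.8%) and 4112 fell (21.6%) from 2 to 10 µM, together 38.4%. Falls were the larger changes. Their median size was 1.63 on the log2 scale, against 1.02 for the rises, and 487 genes fell more than 16-fold while 71 rose by as much. The 3 libraries of one dose did not overlap with those of the other in 3172 of the risen and 4021 of the fallen genes, in 3385 of the 11694 genes not called, and so in 55.7% of all genes tested. Of the fallen genes 486 had a mean under 0.1 CPM at 10 µM, and 131 of the risen genes had a mean under 0.1 CPM at 2 µM. Protein-coding genes made up 2736 of the rises, 3173 of the falls and 13130 of the genes tested, and long non-coding RNAs 147, 320 and 1470. Coding genes were thus called in both directions more often than all genes tested. The gene lists below hold mostly coding genes and are set beside the shares of all genes tested. A list's share slightly above those is therefore not a trait of that list. In bulk RNA, fewer cells that express a gene and less RNA per cell cannot be told apart, and CPM gives shares of a library, not amounts per cell.

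**Figure D1:**
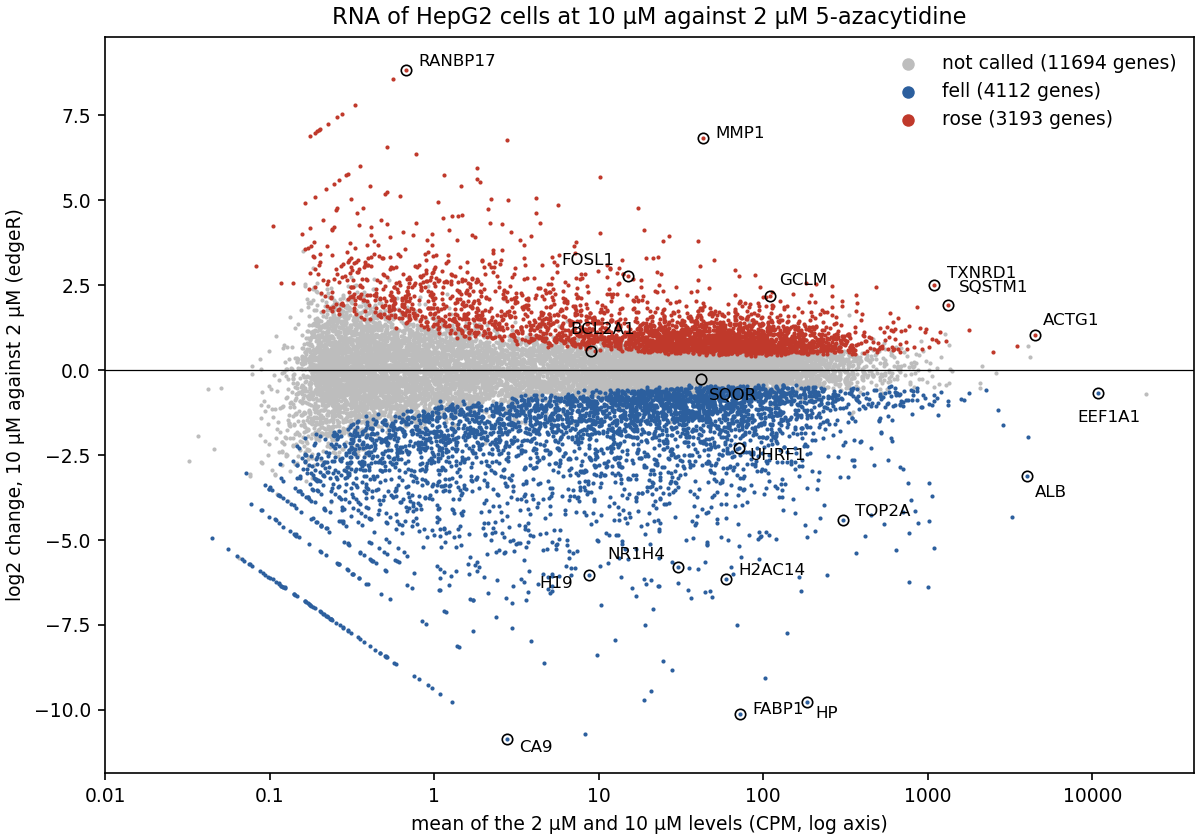
Log2 change from 2 to 10 µM (vertical axis) against the mean of the levels at both doses in CPM (horizontal log axis), 1 point per tested gene, red for the 3193 that rose, blue for the 4112 that fell and grey for those not called; circles mark genes named in the text. Falls reach beyond a log2 change of -10 (FABP1, CA9), while among genes of more than 100 CPM most rises stay under 2.5; diagonal rows of points at low levels are genes with few or no counts at one dose.

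Secreted liver proteins, among the most abundant products of the hepatocyte, fell almost without exception. Of 42 measured genes for secreted liver proteins (5 of the list were left out by the count filter), 41 fell and none rose, with a median log2 change of -4.52, and only F12, a clotting factor, did not pass (-0.26, adjusted p = 0.53). Their summed level was 30616 to 51099 CPM at 2 µM and 1970 to 3076 CPM at 10 µM. ALB, which encodes albumin (chr4:73404287-73421482, hg38), stood at 5288, 6102 and 10159 CPM in 2 µM replicates 1 to 3 and at 631, 1165 and 668 CPM in 10 µM replicates 1 to 3. Every 10 µM library was far below every 2 µM library, and the mean at 0 µM was 18769 CPM. The change was -3.13 (SE 0.33, adjusted p = 1.5e-05).

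APOB, the structural protein of low-density lipoprotein, had 4216, 5937 and 8531 CPM at 2 µM and 254, 336 and 348 CPM at 10 µM, a change of -4.32 (SE 0.30). AFP, the fetal relative of albumin (chr4:73436221-73456174), had 1356, 1648 and 2002 CPM at 2 µM and 76.8, 92.1 and 51.3 CPM at 10 µM, a change of -4.51 (SE 0.27). Neither gene's groups overlapped. The fibrinogen chains FGB and FGG fell by 6.04 and 6.23 on the log2 scale, and TTR, transthyretin, fell by 6.65. SERPINA1, which encodes alpha-1 antitrypsin, fell by 3.72, and APOH, a plasma glycoprotein that binds phospholipid, by 5.30. HP, haptoglobin, went from 321, 268 and 515 CPM to 0.144, 0.231 and 0.869 CPM, a change of -9.76 (SE 0.68), or -10.89 without 10 µM replicate 3. HP and its neighbour HPR (-9.45) have near-identical sequences, so their shares of reads are uncertain.

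Several genes, not all of them for secreted proteins, had no reads left at 10 µM. PLG, plasminogen, had 1.18, 0.606 and 3.67 CPM at 2 µM and 0 counts in all 3 libraries at 10 µM, at least 91.1-fold lower against a floor of 3 counts over the group, or 42.4-fold without 2 µM replicate 3. F13B, the carrier subunit of clotting factor XIII, had 1.15, 1.60 and 2.09 CPM at 2 µM and 0 counts at 10 µM, at least 78.4-fold lower. FABP2, a fatty acid binding protein, was at least 95.2-fold lower by the same floor, MYBPC1, a myosin binding protein, at least 127-fold (74.2-fold without 2 µM replicate 3) and POU2AF1, a transcriptional coactivator, at least 108-fold (57.7-fold without it). Floors and intervals of counts cover counting error only. C8A, a chain of complement component 8, fell by 9.70 (28.3, 30.3 and 53.5 CPM at 2 µM, at most 0.0607 CPM at 10 µM).

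Some of the largest falls owed part of their size to 2 µM replicate 3. FABP1, the liver fatty acid binding protein, had 63.7, 53.2 and 316 CPM at 2 µM and 0.144, 0.135 and 0.101 CPM at 10 µM, and its change of -10.13 became -8.84 without that library. CP, ceruloplasmin, the copper carrier of plasma, changed by -9.06, or -7.99 without it. G6PC1, which releases glucose from its phosphate, had 2.69, 3.32 and 43.5 CPM at 2 µM and 1 count in all at 10 µM, a count ratio of 2556 with a 95% counting interval of 458 to 101010. Without 2 µM replicate 3 the ratio of G6PC1 was 431 (76.7 to 17105). The fitted log2 change of G6PC1 was -10.70, or -8.25 without 2 µM replicate 3 and -12.45 without 10 µM replicate 1. All 3 calls were kept without that library.

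The promoter of APOH is shown for its few CpG dinucleotides (capitals) and for the ATAC peak that overlaps it. It was read from RefSeq (GRCh38.p14) as the 250 bases before the gene's start, 5′ to 3′, and was chosen after its values were seen.
APOH, chr17:66229416-66229665, minus strand: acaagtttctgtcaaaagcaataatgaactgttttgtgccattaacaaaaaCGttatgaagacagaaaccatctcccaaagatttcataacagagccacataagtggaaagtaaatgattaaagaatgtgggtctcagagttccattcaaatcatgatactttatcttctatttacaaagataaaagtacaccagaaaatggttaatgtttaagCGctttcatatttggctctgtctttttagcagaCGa

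The median number of CpG in 32 promoters of the secreted protein list in the RefSeq table was 4, and 59.4% had under 5, against a median of 11 and 35.0% of all 27305 promoters of that length. Those include genes not tested here. Among tested genes with such a promoter the median was 20, and 9.72% had under 5. The APOH window above overlaps an ATAC peak (chr17:66229158-66229658) that stood at 11, 10.7 and 8.32 CPM in the 3 libraries at 2 µM and 3.76 and 5.87 CPM in the pair at 10 µM. Both 10 µM libraries were below all 2 µM libraries, and the peak was lower by a log2 of 1.06 (SE 0.28, adjusted p = 0.0017).

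Liver transcription factors fell too, with some exceptions. Of 26, 17 fell and 2 rose, with a median log2 change of -0.95. That is 65.4% and 7.69%, against 21.6% and 16.8% of all genes tested. HNF4A (chr20:44355699-44434596), a nuclear receptor that controls many hepatocyte genes, had 262, 197 and 324 CPM at 2 µM and 68.8, 95.7 and 77.4 CPM at 10 µM, a change of -1.69 (SE 0.21, adjusted p = 6.2e-05). Its groups did not overlap. NR1H4, the bile acid receptor FXR (chr12:100473866-100564414), had 53.6, 59.0 and 65.5 CPM at 2 µM and 0.526, 1.63 and 1.01 CPM at 10 µM, a change of -5.79 (SE 0.34, adjusted p = 2.9e-07). NR0B2, the repressor SHP that FXR induces, fell by 2.85, the oxysterol receptor NR1H3 by 1.48 and the pioneer factor FOXA1 by 1.72. The 2 that rose were GATA6, a factor of early endoderm (1.56, SE 0.26), and CEBPB, a factor of the acute phase and of stress (0.87, SE 0.23).

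Drug and bile acid metabolism followed the secreted proteins in direction. Of 22 measured cytochrome P450 and conjugating enzyme genes (16 of the list were left out as too low), 16 fell and 1 rose, with a median log2 change of -2.96, and 2 rose without 10 µM replicate 2. The 16 and 1 are 72.7% and 4.55%, against 21.6% and 16.8% of all genes tested. SULT2A1, a sulfotransferase of steroids and bile acids, had 47.2, 51.8 and 107 CPM at 2 µM and 0.766, 0.769 and 0.768 CPM at 10 µM, a change of -6.48. UGT2B4 fell by 4.50 (5.34 without 10 µM replicate 2) and CYP27A1, which starts the acidic route of bile acid synthesis, by 2.40. CYP7A1, the rate-limiting enzyme of the classical route, was left with 2 counts at 10 µM, a count ratio of 42.5 with a 95% counting interval of 11.4 to 358. CYP1A1, a target of the aryl hydrocarbon receptor, was the 1 that rose: 3.29, 2.06 and 2.41 CPM at 2 µM against 14.7, 23.1 and 5.32 CPM at 10 µM, a change of 2.47 (SE 0.45, adjusted p = 0.00093).

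Lipid and sugar metabolism moved with less agreement between the libraries. In cholesterol synthesis 18 of 24 genes fell and none rose (median -1.33), but 10 fell without 2 µM replicate 3, in which the list's summed level was 3733 CPM against 1705 and 1623 CPM in the other 2 µM libraries and 902 to 999 CPM at 10 µM. EBP, a sterol isomerase, had 26.6, 23.3 and 36.1 CPM at 2 µM and 5.65, 4.82 and 6.92 CPM at 10 µM, a change of -2.31 (SE 0.27), and its groups did not overlap. ACAT2, which makes acetoacetyl-CoA at the start of the pathway, had 101, 112 and 255 CPM and then 20.9, 20.5 and 24.4 CPM, a change of -2.83 (SE 0.37). TM7SF2, a sterol reductase, fell by 2.03. Among 20 genes of fatty acid synthesis 9 fell and 3 rose. GPAM, the first enzyme of triglyceride synthesis, fell by 3.47 and the desaturase SCD by 2.80 (1.93 without 2 µM replicate 3), while LPIN1, a phosphatidate phosphatase, rose by 1.68. Of 32 genes of glycolysis and the hypoxia response 11 fell and 2 rose, 40.6% against 38.4% of all genes tested. There were 7 falls without 2 µM replicate 3, and 17 falls and 4 rises without 0 µM replicate 3. The glucose transporter SLC2A1 fell by 2.10, lactate dehydrogenase LDHA by 1.48 and the phosphofructokinase PFKL by 1.87. CA9, a carbonic anhydrase induced by hypoxia, had 4.59, 2.16 and 9.76 CPM at 2 µM and no counts at 10 µM, at least 272-fold lower (160-fold without 2 µM replicate 3), whereas the peptide ADM, also induced by hypoxia, rose by 1.43.

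**Figure D2:**
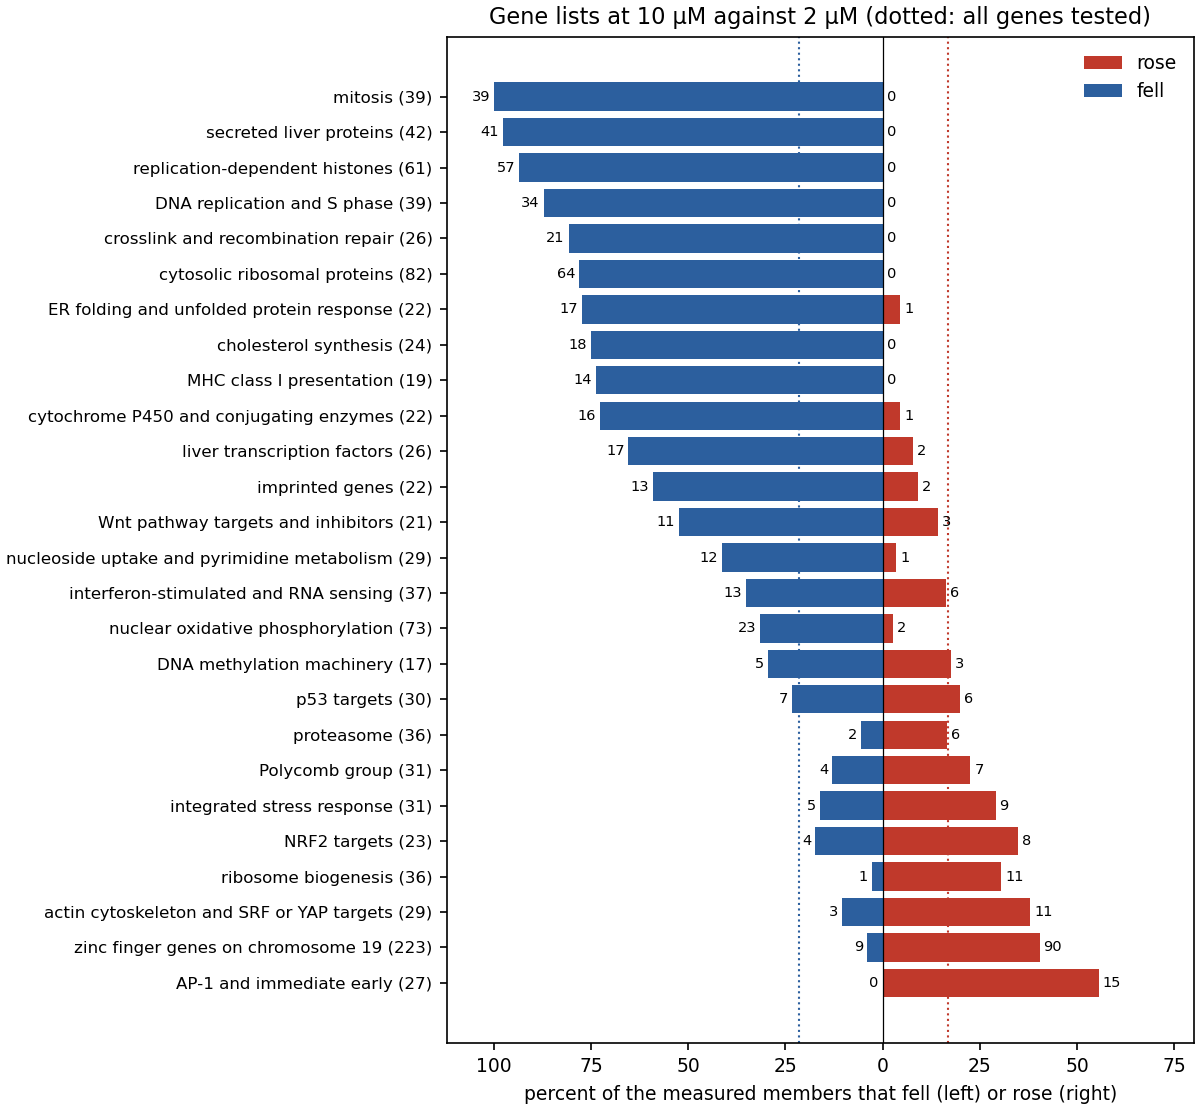
Share of the measured members of 26 gene lists that fell (blue, to the left) or rose (red, to the right) from 2 to 10 µM in percent, with the number of genes at each bar and the number measured in brackets; dotted lines mark 21.6% falls and 16.8% rises of all genes tested. The lists of mitosis, secreted liver proteins and histones lie almost wholly on the side of falls, and the AP-1 list has 15 rises and no fall.

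Genes of the dividing cell fell as a block. All 39 measured genes of mitosis fell, with a median log2 change of -3.25 and changes from -4.50 (KIF20A) to -1.07 (INCENP), and they fell in every fit that left out 1 library. Their summed level was 3490 to 4016 CPM at 2 µM and 400 to 550 CPM at 10 µM. TOP2A, the topoisomerase that untangles chromosomes (chr17:40388525-40417896), had 480, 615 and 647 CPM at 2 µM and 16.9, 33.1 and 31.1 CPM at 10 µM. The groups were far apart, and the change was -4.42 (SE 0.28, adjusted p = 4.2e-07). The mitotic kinase CDK1 had 146, 169 and 134 CPM and then 5.10, 13.9 and 11.2 CPM, a change of -3.89. Its partner CCNB2, cyclin B2, fell by 4.01, MKI67, the antigen used to mark cycling cells, by 3.63, and CENPA, the histone of the centromere, by 4.21.

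DNA replication and repair fell too, by less. Of 39 genes of replication and S phase 34 fell and none rose (median -1.59), and of 26 genes of crosslink and recombination repair 21 fell and none rose (median -1.58). PCNA, the sliding clamp, had 423, 463 and 374 CPM at 2 µM and 121, 102 and 115 CPM at 10 µM, a change of -1.90 (SE 0.34). CDT1, which licenses origins, fell by 2.51, the ligase LIG1 by 2.65 and the primase PRIM1 by 2.46. In repair, FANCD2 fell by 2.76, FANCI by 2.17 and the helicase BRIP1 by 2.32. Enzymes that feed DNA synthesis moved alike, among them ribonucleotide reductase, which this drug also meets on its way into DNA. TK1, thymidine kinase, had 90.3, 56.4 and 78.4 CPM and then 4.76, 7.57 and 7.50 CPM (-3.50, SE 0.35), TYMS, thymidylate synthase, fell by 2.06, and RRM2, the subunit of ribonucleotide reductase made in S phase, fell by 2.72. Of the 29 measured genes of nucleoside uptake and pyrimidine metabolism to which these belong, 12 fell and 1 rose. That is 41.4% and 3.45%, against 21.6% and 16.8% of all genes tested.

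Histone genes of S phase, whose mRNAs mostly end in a stem loop without a poly(A) tail, fell further still. Of 61 measured, 57 fell and none rose, with a median of -3.95, and 4 did not pass. Their summed level was 7302, 5750 and 3912 CPM in 2 µM replicates 1 to 3 and 785, 679 and 732 CPM at 10 µM. H2AC14, an H2A gene of the large cluster (chr6:27814302-27814777), had 150, 124 and 78.0 CPM at 2 µM and 1.29, 1.44 and 2.2 CPM at 10 µM, a change of -6.15 (SE 0.55, adjusted p = 4.2e-06). H3C2 fell by 4.92 and H1-1 fell by 5.35. H4C16, which lies outside the main clusters on chromosome 12, fell by 1.60 (adjusted p = 0.016), a call lost without 2 µM replicate 1 (adjusted p = 0.0866) and in 1 other fit that left out a library. Histone genes are near copies of one another, so the reads of single members are uncertain and the sum is the firmer value.

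Inhibitors of the cell cycle did not move in 1 direction. CDKN1A, which encodes p21 (chr6:36676463-36687332), had 170, 138 and 110 CPM at 2 µM and 343, 292 and 310 CPM at 10 µM, with a mean of 107 CPM at 0 µM. The 10 µM libraries all lay above the others, and the change was 1.18 (SE 0.21, adjusted p = 0.00097). CDKN2B, p15, rose by 1.05, a call lost without 10 µM replicate 3 (adjusted p = 0.0542). CDKN1B, p27, fell by 0.90, CDKN2C, p18, by 3.73 and the phosphatase CDKN3 fell by 4.33. Of 30 p53 targets 6 rose and 7 fell, 43.3% against 38.4% of all genes tested, or 4 fell without 10 µM replicate 3. SESN2, a stress sensor that restrains mTORC1, had 74.3, 52.3 and 32.1 CPM and then 332, 347 and 258 CPM (2.56, SE 0.32), and PLK2 rose by 1.66. MDM2, the ubiquitin ligase of p53 and one of its best known targets, did not pass (-0.20, adjusted p = 0.42), and DDB2 and FDXR fell by 1.36 and 2.07.

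Promoters of 3 of these genes are shown because mitotic and histone genes are known for repeated CCAAT boxes, and mitotic genes also for TTTGAA, the core of the cell cycle homology region. Each is the 250 bases before the start in RefSeq (GRCh38.p14), 5′ to 3′, chosen after the values were seen. Capitals mark CCAAT and, in TOP2A and CCNB2, TTTGAA, on either strand (ATTGG and TTCAAA on the other), and no marked matches overlap.
TOP2A, chr17:40417897-40418146, minus strand: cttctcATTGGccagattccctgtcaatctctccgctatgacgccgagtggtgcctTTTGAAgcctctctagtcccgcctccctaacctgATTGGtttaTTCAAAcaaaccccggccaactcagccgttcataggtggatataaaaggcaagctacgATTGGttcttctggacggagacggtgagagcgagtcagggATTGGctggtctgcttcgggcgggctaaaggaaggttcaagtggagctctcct
CCNB2, chr15:59104896-59105145, plus strand: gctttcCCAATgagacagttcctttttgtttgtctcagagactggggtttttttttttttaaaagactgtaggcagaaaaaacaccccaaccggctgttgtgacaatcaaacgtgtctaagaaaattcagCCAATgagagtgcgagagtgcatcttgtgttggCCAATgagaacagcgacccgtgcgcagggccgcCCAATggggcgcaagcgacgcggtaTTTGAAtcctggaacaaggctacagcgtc
H2AC14, chr6:27814778-27815027, minus strand: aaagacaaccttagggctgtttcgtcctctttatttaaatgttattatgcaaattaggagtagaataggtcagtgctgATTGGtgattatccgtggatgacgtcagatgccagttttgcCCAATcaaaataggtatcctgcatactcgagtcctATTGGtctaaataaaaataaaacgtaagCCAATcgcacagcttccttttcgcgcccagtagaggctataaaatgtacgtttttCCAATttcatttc

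CCAAT stands in 28 of 34 promoters of the mitosis list (82.4%), 47 of 56 histone promoters (83.9%) and 19 of 33 replication promoters (57.6%), against 33.0% of all 27305 promoters. Lists with more rises also had CCAAT above that share: NRF2 targets 52.9%, zinc finger genes 49.5% and the AP-1 list 42.1%. The secreted protein list had it in 43.8%. TTTGAA stands in 20 of the 34 mitosis promoters (58.8%) and in none of the 33 replication promoters, against 13.6% of all. Among tested genes it stands in 8.16% of risen, 10.8% of fallen and 8.27% of uncalled ones. In other lists the share varied. It also stands in 32.1% of histone and 31.2% of secreted protein promoters, and in 15.8% of the AP-1 list and 10.2% of the zinc finger genes. These letters are short, and a match describes a window and does not show that a factor binds there. The TOP2A window lies inside an ATAC peak (chr17:40417794-40418294) at 25.1, 30.3 and 31.0 CPM at 2 µM and 30.6 and 31.8 CPM at 10 µM, which did not pass (log2 0.10, adjusted p = 0.61), while its RNA fell more than 16-fold. The H2AC14 window lies inside a peak (chr6:27814668-27815168) at 31.6, 29.6 and 25.2 CPM at 2 µM and 12.9 and 8.70 CPM at 10 µM. That peak was lower by a log2 of 1.35 (SE 0.19, adjusted p = 5.9e-07), with no overlap between the groups.

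**Figure D3:**
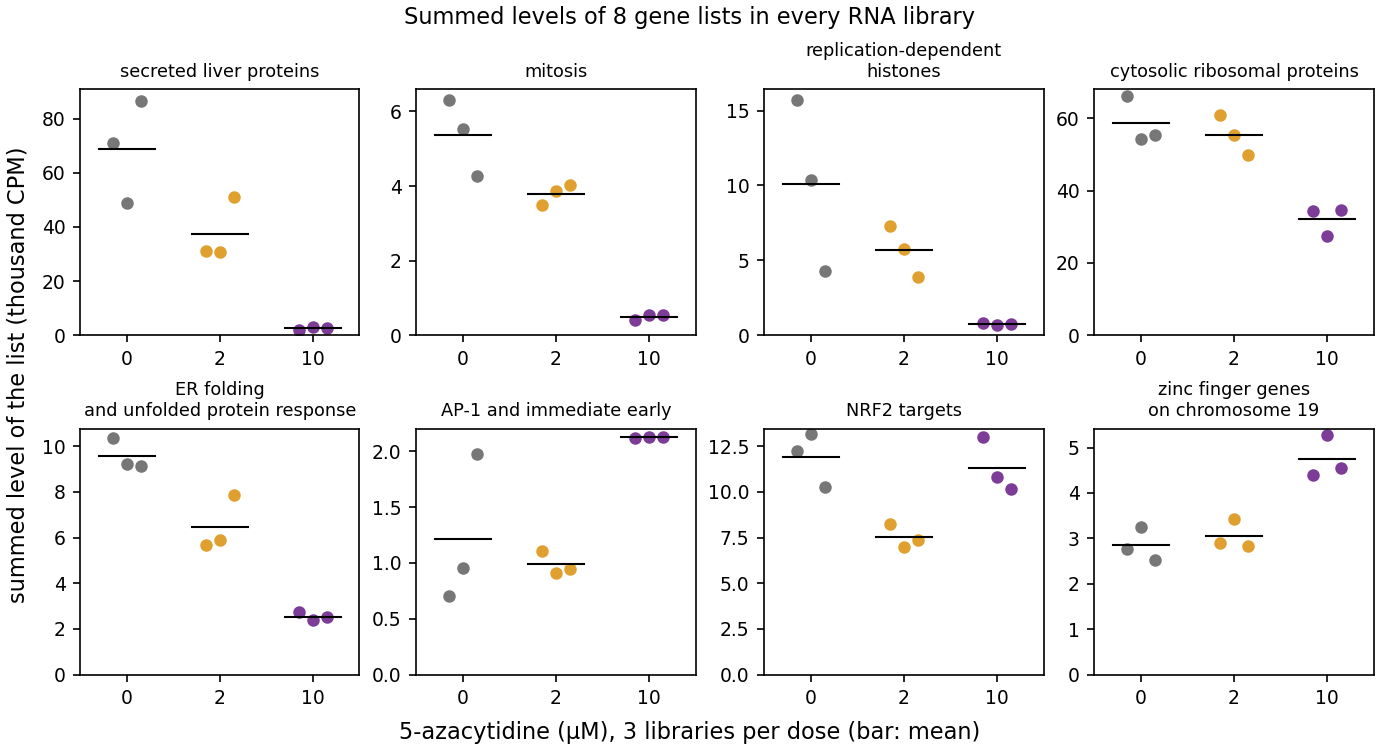
Summed level of 8 gene lists in kilo-CPM (linear axis from 0) in each of the 9 RNA libraries by dose of 5-azacytidine, 1 point per library in the order of replicate numbers and a bar for the mean. Secreted liver proteins, mitosis and histones are lowest at 10 µM by several fold, ribosomal proteins and the ER list by less, and the AP-1 list and the zinc finger genes are highest at 10 µM; NRF2 targets at 10 µM (10177 to 13011 CPM) are above 2 µM and overlap with 0 µM (10260 to 13165 CPM).

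The machinery of protein synthesis and secretion was lower at 10 µM, and part of the machinery that builds ribosomes was higher. Of 82 cytosolic ribosomal protein genes 64 fell and none rose, with a median change of -0.79, and over the fits that left out 1 library 48 to 68 fell, with 1 rise without 0 µM replicate 3. The summed level went from 49819 to 60849 CPM at 2 µM to 27507 to 34528 CPM at 10 µM. RPS27 had 540, 488 and 478 CPM and then 197, 166 and 202 CPM (-1.41, SE 0.17). RPL6 fell by 0.52 (adjusted p = 0.036), a call lost in 5 of those fits, with an adjusted p of 0.158 without 10 µM replicate 2. EEF1A1, the factor that brings aminoacyl-tRNA to the ribosome, had 13978, 13861 and 12305 CPM and then 9581, 7039 and 8545 CPM (-0.67, SE 0.17, adjusted p = 0.0079). Ribosomal proteins have many processed copies in the genome, to which the reads of a gene may also match.

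Of 36 ribosome biogenesis genes 11 rose and 1 fell (median 0.45), 30.6% and 2.78% against 16.8% and 21.6% of all genes tested. The count of rises rested on the libraries chosen. It was 18 without 0 µM replicate 3. In turn it was 7, 6 and 5 when 2 µM replicates 1, 2 and 3 were left out, and 5, 4 and 7 when those at 10 µM were. RRN3, which recruits RNA polymerase I to ribosomal DNA, had 215, 253 and 150 CPM at 2 µM and 581, 598 and 556 CPM at 10 µM (1.49, SE 0.22, adjusted p = 0.00019). FBL, the methyltransferase of box C/D particles, fell by 0.87. SNORD3A, the U3 small nucleolar RNA, had 4968, 11509 and 3044 CPM and then 2075, 573 and 2380 CPM, and its fall of 1.96 on the log2 scale was lost without 2 µM replicate 2 (-1.25, adjusted p = 0.0651). Its gene is one of several near copies, so its reads are uncertain.

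In the endoplasmic reticulum 17 of 22 folding and unfolded protein response genes fell and 1 rose (median -1.19), or 2 rose without 0 µM replicate 3. PDIA4, a disulfide isomerase (chr7:149003051-149028505), had 457, 372 and 757 CPM at 2 µM and 62.8, 52.1 and 65.3 CPM at 10 µM, a change of -3.14 (SE 0.27, adjusted p = 3.5e-06). HSPA5, the chaperone BiP, fell from 232, 235 and 335 CPM to 109, 104 and 86.9 CPM, HSP90B1 fell by 2.30 and calreticulin, CALR, by 2.06. ERN1, the stress sensor IRE1, was the gene that rose: 21.3, 25.5 and 21.3 CPM against 57.6, 85.4 and 70.5 CPM (1.65, SE 0.39). Presentation by MHC class I was lower as well, with 14 of 19 genes fallen and none risen (median -1.18), or 1 risen without 0 µM replicate 2 or 3. B2M, the light chain, fell by 0.74, PSME1, an activator of the proteasome, by 1.57, and NLRC5, the activator of these genes, by 2.32 (1.72 without 2 µM replicate 3).

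Among mitochondrial genes only nuclear ones were called, which does not show that nuclear and mitochondrial ones changed differently. Of 73 nuclear genes of oxidative phosphorylation 23 fell and 2 rose (median -0.33), 34.2% called against 38.4% of all genes tested. The falls were 31.5% against 21.6% of all genes and the rises 2.74% against 16.8%. Without 10 µM replicate 2, 13 fell, and 1 rose without 2 µM replicate 2 or 3 or 10 µM replicate 1 or 3. NDUFV1 fell by 1.09 and ATP5MC1 by 1.47, while NDUFV2 rose by 1.76. None of 12 mRNAs encoded by the mitochondrion passed, with changes from -0.78 to 0.07, but 11 were lower (median -0.18). At 2 µM, replicate 3 held the most of them. MT-ND1 passed in the fit with a replicate block over 2 and 10 µM and 10 µM numbers 2 and 3 exchanged (-0.72, adjusted p = 0.0325). MT-CO3, a cytochrome oxidase subunit, had 436, 459 and 1022 CPM at 2 µM and 449, 589 and 478 CPM at 10 µM, a change of -0.34 (adjusted p = 0.48) that turned to 0.16 without that library.

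A smaller number of genes rose by large factors, some from silence. RANBP17, a nuclear transport receptor (chr5:170862018-171300015), had 0 counts in all 3 libraries at 2 µM and 2.06, 0.865 and 1.11 CPM at 10 µM. Against a floor of 3 counts over the group, that is at least 55.4-fold higher. PAX3, a developmental transcription factor, was at least 47.6-fold higher on the same floor, with 1.34, 1.13 and 0.910 CPM at 10 µM. LBX1, a homeobox gene, had 1.77, 1.23 and 1.60 CPM at 10 µM, a count ratio of 96.9 with a 95% counting interval of 26.5 to 805, and its fitted rise of 6.36 was 9.04 without 2 µM replicate 1. TMCC3, a membrane protein of the endoplasmic reticulum, had 0.552, 0.582 and 0.0426 CPM and then 26.9, 14.8 and 18.1 CPM (5.68, SE 0.62). KCNMA1, the pore of a calcium-activated potassium channel, rose by 5.96 (6.59 without 2 µM replicate 2), and GOLGA7B, which assists protein palmitoylation, by 5.04. ANXA10, an annexin, rose by 6.77, or 10.87 without 2 µM replicate 2, the only 2 µM library with reads of it, 6.14 without 2 µM replicate 3 and 5.99 without 10 µM replicate 1. IL1RL1, the receptor of interleukin 33, rose by 5.02, or 4.30 without 10 µM replicate 1. SPANXB1 and POTEB3, members of primate families with near-identical copies, rose from at most 0.149 and 0.0243 CPM to 2.52 to 5.98 and 0.634 to 1.22 CPM, and their reads cannot be given to 1 copy with certainty. The fitted rise of SPANXB1 was 5.55, or 6.53 without 2 µM replicate 3, and that of POTEB3 6.56, or 8.44 without 2 µM replicate 2.

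MMP1, interstitial collagenase (chr11:102789919-102798160), had the largest rise among genes past 10 CPM in every 10 µM library. It had 0.351, 0.922 and 0.917 CPM at 2 µM and 133, 12 and 110 CPM at 10 µM. The 10 µM libraries differed by more than 10-fold among themselves, yet all lay above 2 µM, and the change was 6.84 (SE 0.93, adjusted p = 0.00011). Its neighbour MMP3, stromelysin, had 31.0, 29.5 and 11.1 CPM and then 208, 23.4 and 99.2 CPM, again lowest in 10 µM replicate 2. The MMP3 groups overlapped, and its rise of 2.21 was lost in 2 fits that left out a library (1.36, adjusted p = 0.0945, without 10 µM replicate 1).

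**Figure D4:**
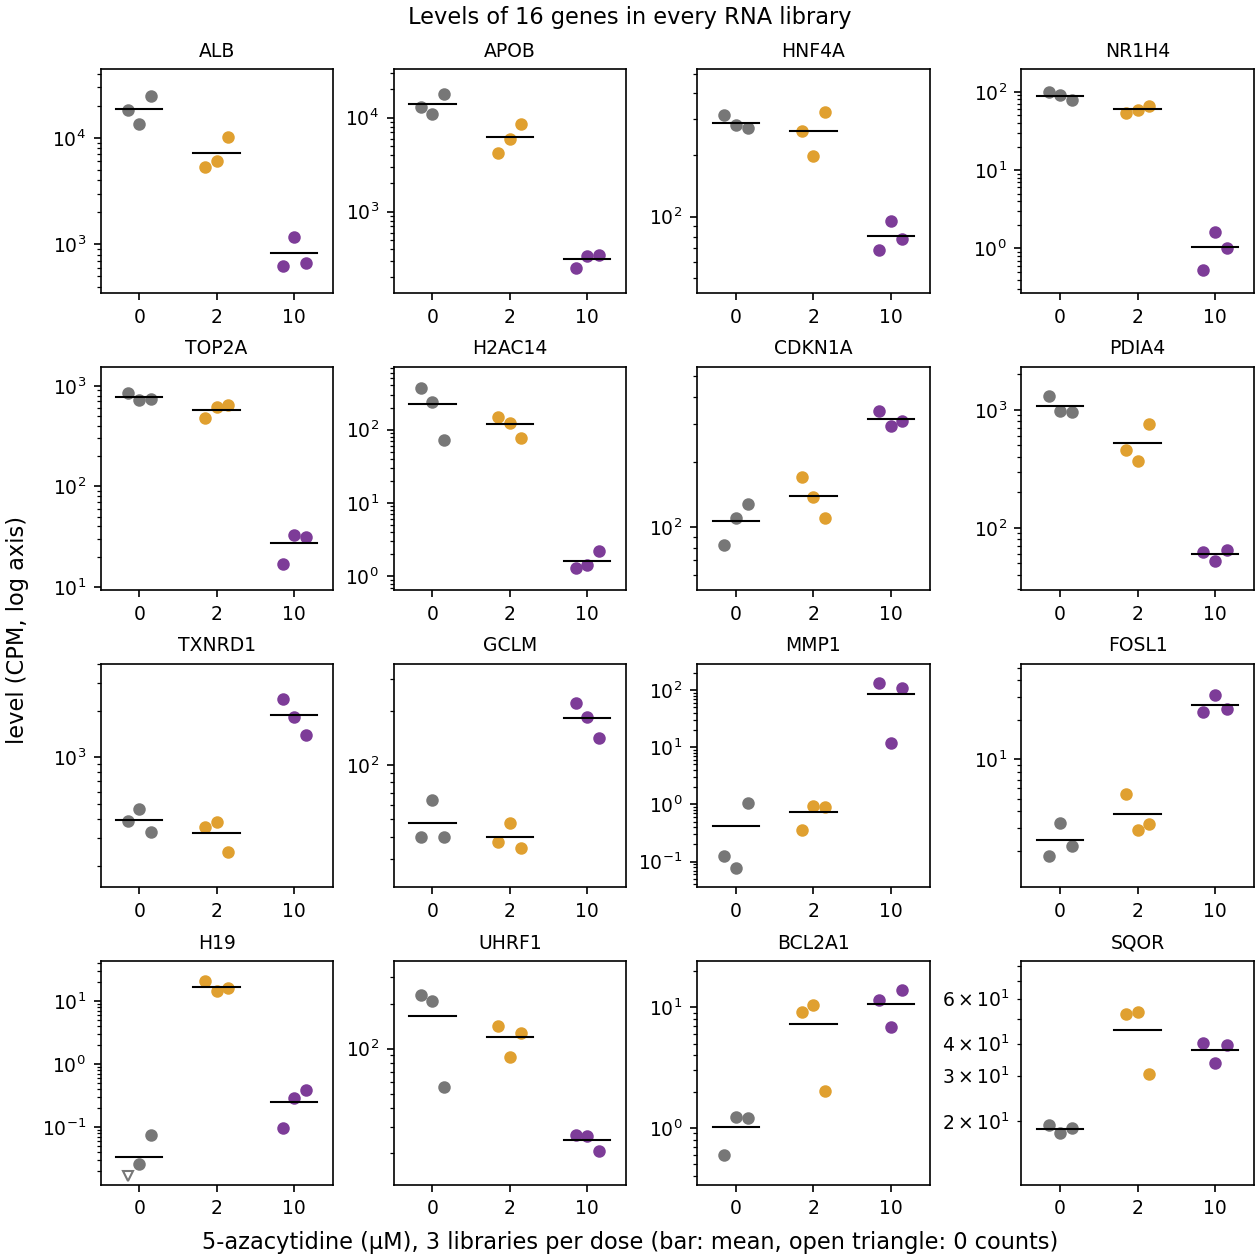
Level in CPM (log axis) of 16 genes in each RNA library at 0, 2 and 10 µM 5-azacytidine, 1 point per library in the order of replicate numbers, a bar for the mean and an open triangle for a library with 0 counts. From ALB to H2AC14 and in PDIA4 the 10 µM libraries lie below all others, in CDKN1A, TXNRD1, GCLM, MMP1 and FOSL1 above all others, and BCL2A1 and SQOR overlap between 2 and 10 µM.

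NRF2 is the transcription factor that answers oxidants and electrophiles with enzymes of glutathione and thioredoxin. Of 23 measured targets 8 rose and 4 fell (median 0.21), 34.8% and 17.4% against 16.8% and 21.6% of all genes tested. Falls numbered 2 without 2 µM replicate 1 or 3 or 10 µM replicate 1 or 3. TXNRD1, thioredoxin reductase (chr12:104215779-104350307), had 353, 381 and 243 CPM at 2 µM and 2383, 1821 and 1390 CPM at 10 µM, a change of 2.52 (SE 0.25, adjusted p = 1e-05). GCLM, a subunit of the enzyme that starts glutathione synthesis (chr1:93885199-93909430), had 37.1, 47.6 and 34.4 CPM and then 221, 183 and 140 CPM, a change of 2.19 (SE 0.25, adjusted p = 2.6e-05). Both stood at 10 µM above every library at 0 and 2 µM. The catalytic subunit GCLC rose by 2.03, OSGIN1 by 2.82 and heme oxygenase, HMOX1, by 1.37. NQO1, a quinone reductase often used to read this pathway, did not pass (-0.54, adjusted p = 0.081), but passed as lower in several other fits. These included the fits without 0 µM replicate 3 (adjusted p = 0.0197) and with only the 2 and 10 µM libraries (-0.57, adjusted p = 0.0221). It also passed with a replicate block over all doses (adjusted p = 0.0344) and without replicates 3 of 0 and 2 µM (adjusted p = 0.0282). SLC7A11, which imports cystine for glutathione, rose by 1.16 (adjusted p = 0.028), a call lost in 4 fits that left out a library (adjusted p = 0.0993 without 2 µM replicate 3). SQSTM1, the autophagy receptor p62, was named for its large difference in CPM: 735, 559 and 373 CPM at 2 µM against 2449, 1850 and 2046 CPM at 10 µM (1.93, SE 0.26).

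The GCLM promoter is shown for the antioxidant response element that NRF2 is known to bind (TGACNNNGC on either strand, capitals), as the 250 bases before the start in RefSeq (GRCh38.p14), 5′ to 3′, chosen after the values were seen.
GCLM, chr1:93909431-93909680, minus strand: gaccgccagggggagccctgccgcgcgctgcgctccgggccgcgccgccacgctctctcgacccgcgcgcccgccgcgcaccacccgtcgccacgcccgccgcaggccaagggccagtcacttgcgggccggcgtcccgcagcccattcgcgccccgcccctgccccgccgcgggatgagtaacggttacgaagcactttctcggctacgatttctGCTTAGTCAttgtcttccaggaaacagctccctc

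The element stands in 3 of 17 promoters of the list (17.6%), against 11% of all promoters, so these letters are common. The GCLM window lies inside an ATAC peak (chr1:93909376-93909876) at 19.2, 17.5 and 23.6 CPM at 2 µM and 36 and 23.3 CPM at 10 µM. The lower 10 µM library was level with the highest at 2 µM, and the peak was higher by a log2 of 0.54 (SE 0.18, adjusted p = 0.012). A second promoter peak of the gene did not pass (-0.14, adjusted p = 0.59).

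Immediate early genes, the AP-1 factors and their companions that answer growth factors and stress within minutes, rose as a list. Of 27 measured 15 rose and none fell, with a median of 1.24, and 14 to 16 rose in the fits that left out 1 library. Their summed level was 1107, 909 and 947 CPM at 2 µM and 2118, 2132 and 2128 CPM at 10 µM, and at 0 µM it ran from 706 to 1972 CPM. FOSL1, the AP-1 subunit FRA1 (chr11:65892049-65900545), had 5.40, 2.86 and 3.18 CPM at 2 µM and 23.1, 31.0 and 24.2 CPM at 10 µM. The groups lay well apart, with a change of 2.78 (SE 0.31, adjusted p = 2.6e-05). JUN rose by 2.01, FOSB by 3.53, KLF4 by 2.73 and MYC by 1.16, while FOS did not pass (1.27, adjusted p = 0.14). FOS stood at 2.2 and passed without 2 µM replicate 3 (adjusted p = 0.0257), and at 0.51 without 10 µM replicate 2 (adjusted p = 0.593). It also passed with no count filter (1.28, adjusted p = 0.0016). AP-1 letters (TGANTCA) stand in none of the 19 promoters of this list in the table, against 6.60% of all promoters. Among tested genes they stand in 5.14% of risen, 3.88% of fallen and 3.8% of uncalled ones, and 19 promoters are too few to tell none from such shares.

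Genes of the actin cytoskeleton and of its transcription factors SRF and YAP moved both ways. Of 29, 11 rose and 3 fell, 37.9% and 10.3% against 16.8% and 21.6% of all genes tested, with 5 falls without 0 µM replicate 3. ACTG1, cytoplasmic gamma actin, had 3892, 2923 and 2002 CPM at 2 µM and 7036, 5450 and 5515 CPM at 10 µM (1.03, SE 0.23), and FLNA, filamin A, rose by 1.18. The groups of ACTG1 did not overlap. The secreted proteins CCN1 and CCN2, both known targets of YAP, went opposite ways. CCN1 rose by 2.15, and CCN2 fell by 2.42, a call lost in 3 fits (-1.77, adjusted p = 0.0823, without 2 µM replicate 3). F2RL1, a receptor cleaved by proteases, had 475, 483 and 161 CPM and then 1478, 1159 and 1424 CPM (1.86, SE 0.36), and SPTBN1, a spectrin, rose by 0.70, a call lost in 4 fits that left out a library (adjusted p up to 0.0604, without 2 µM replicate 3).

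Other stress programmes gave calls in both directions. In the integrated stress response, which slows translation and induces ATF4, 9 of 31 genes rose and 5 fell, or 5 rose without 2 µM replicate 3. The 9 and 5 are 29.0% and 16.1%, against 16.8% and 21.6% of all genes. ATF4 and DDIT3, its transcription factors, rose by 0.63 and 0.98 (adjusted p = 0.042 and 0.046), calls lost in 7 and 6 of the 9 fits that left out a library, with adjusted p of up to 0.149 and 0.154. ATF3 rose by 2.06 (SE 0.50, adjusted p = 0.0059) without such a loss. PHGDH, PSAT1 and PSPH, the serine synthesis enzymes that ATF4 is known to induce, fell by 1.54, 1.5 and 1.59, and SLC3A2, the heavy chain of amino acid exchangers, rose by 1.55. Of 22 heat shock genes 4 rose and 2 fell, 18.2% and 9.09% against 16.8% and 21.6% of all genes, and without 0 µM replicate 3 7 rose and 4 fell, while without 10 µM replicate 2 1 fell. BAG3, a co-chaperone of selective autophagy, had 31.9, 23.4 and 31.3 CPM and then 85.4, 87.4 and 87.1 CPM (1.58, SE 0.20), and HSPA1A rose by 0.93, although the near-identical HSPA1B may share its reads. Of 36 proteasome genes 6 rose and 2 fell, 16.7% and 5.56% against 16.8% and 21.6% of all genes, but 3 rose without 2 µM replicate 1 and 1 without 2 µM replicate 3 or 10 µM replicate 1 or 3, and 1 fell without any 1 of the 2 and 10 µM libraries.

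Zinc finger genes of chromosome 19, a large family of mostly KRAB repressors that arose by tandem duplication, were the largest list with more rises than falls. Of 223 measured 90 rose and 9 fell, with a median of 0.62 against -0.02 for all genes tested. The number of rises was 59, 51 and 49 without 2 µM replicate 1, 2 µM replicate 3 and 10 µM replicate 2, and the number of falls was 5 without 2 µM replicate 2 or 10 µM replicate 1 or 3. Their summed level was 2906, 3425 and 2823 CPM at 2 µM and 4385, 5280 and 4559 CPM at 10 µM. ZNF841 had 21.8, 25.8 and 20.3 CPM and then 75.6, 79.5 and 65.8 CPM (1.70, SE 0.18, adjusted p = 1.6e-05), and ZNF155 rose by 2.27. ZNF320 fell by 2.55. Chromosome 19 had 24.1% of its tested genes risen, and 19.9% without these zinc finger genes, and chromosome 10 had 24.3% risen. On chromosome 6, 28.3% of genes fell, or 24.3% without the histone genes. Without these families both lay within the range of other chromosomes, with 20.2% risen on chromosome 1 and 26.0% fallen on chromosome 11. Of 15950 tested genes with a RefSeq annotation, 2970 rose and 3639 fell.

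The targets of the drug and their partners were tested by name. DNMT1, the maintenance methyltransferase (chr19:10133346-10194953), had 118, 96.6 and 123 CPM at 2 µM and 85.6, 88.2 and 87.2 CPM at 10 µM. The groups did not overlap, but the change of -0.37 (SE 0.19) did not pass (adjusted p = 0.13). DNMT3A and DNMT3B, the de novo enzymes, fell by 1.00 (adjusted p = 0.0013) and 1.03 (adjusted p = 0.003). UHRF1, which brings DNMT1 to newly replicated DNA (chr19:4903080-4962154), had 142, 88.5 and 127 CPM and then 26.4, 25.9 and 20.7 CPM, a change of -2.29 (SE 0.40, adjusted p = 0.00078). Of its 2 promoter peaks 1 was lower by a log2 of 1.88 and the other did not pass (0.45, adjusted p = 0.072). HELLS, a remodeller needed for methylation, fell by 1.51, and TET1, which oxidises methylated cytosine, by 1.59. Of 17 genes of the methylation machinery 5 fell and 3 rose, 29.4% and 17.6% against 21.6% and 16.8% of all genes tested. There was 1 rise without 2 µM replicate 1 or 10 µM replicate 2, and there were 5 rises without 2 µM replicate 2. MBD1, a reader of methylated DNA, rose by 1.23. TET3 rose by 0.75 (adjusted p = 0.016), lost in 2 fits that left out a library (adjusted p = 0.101 without 10 µM replicate 2).

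Other chromatin regulators gave calls in both directions. Of 31 Polycomb genes 7 rose and 4 fell, 35.5% against 38.4% of all genes tested. There were 11 rises without 0 µM replicate 3 and 4 without 2 µM replicate 3 or 10 µM replicate 1 or 3. EZH2, the methyltransferase of dividing cells, had 41.2, 53.1 and 57.1 CPM and then 20.7, 26.5 and 26.8 CPM (-1.03, SE 0.20), and EZH1, its counterpart in resting cells, had 18.6, 18.6 and 22.5 CPM and then 45, 50.5 and 42.3 CPM (1.21, SE 0.23). Neither gene's groups overlapped. BMI1, a subunit of the other Polycomb complex, rose by 1.90 and CBX6 by 1.60. CBX5, the heterochromatin protein HP1 alpha, fell by 2.16, and MORC3 and ZNF274, which act in silencing of repeats and of zinc finger genes, rose by 1.06 and 1.07. Enzymes that methylate cytosine in RNA, which this drug also enters, gave small changes: NSUN2, NSUN4 and NSUN5 rose by 0.70, 0.65 and 0.85 and NSUN6 fell by 0.64, and all 4 calls were lost in at least 1 fit that left out a library, with adjusted p of up to 0.0813, 0.0505, 0.0701 and 0.133.

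BCL2A1, named in the title of the series, encodes BFL-1, a protein that blocks mitochondrial cell death (chr15:79960892-79971196). Its RNA had 9.09, 10.5 and 2.00 CPM in 2 µM replicates 1 to 3 and 11.4, 6.84 and 13.8 CPM in 10 µM replicates 1 to 3. The groups overlapped, and the change of 0.57 (SE 0.49) did not pass (adjusted p = 0.39). Its promoter is shown because the chromatin there did differ between the doses. The sequence is the 250 bases before the start in RefSeq (GRCh38.p14), 5′ to 3′, with its few CpG in capitals.
BCL2A1, chr15:79971197-79971446, minus strand: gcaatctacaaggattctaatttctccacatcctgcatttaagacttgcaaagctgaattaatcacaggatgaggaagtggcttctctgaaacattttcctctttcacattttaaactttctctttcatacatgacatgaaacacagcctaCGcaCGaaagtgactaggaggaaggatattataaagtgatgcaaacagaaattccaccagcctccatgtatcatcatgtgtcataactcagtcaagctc

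The ATAC peak that this window overlaps (chr15:79970891-79971391) stood at 6.87, 8.94 and 6.41 CPM at 2 µM and at 20.7 and 25 CPM at 10 µM. The groups did not overlap, and the peak was higher by a log2 of 1.65 (SE 0.22, adjusted p = 1.2e-07). Among the 18 measured genes of the BCL2 family 4 rose and 2 fell, 33.3% against 38.4% of all genes tested. There was 1 fall without 2 µM replicate 1 and none without 10 µM replicate 2 or 3. MCL1, which protects cells, had 445, 522 and 368 CPM and then 936, 1027 and 1043 CPM (1.17, SE 0.25, adjusted p = 0.0029). BCL2L2, also protective, rose by 0.85. PMAIP1, which encodes the death protein NOXA and acts on MCL1, had 7.35, 10.9 and 2.02 CPM and then 34.8, 25.2 and 23.6 CPM (2.04, SE 0.52, adjusted p = 0.0077), and the effector BAK1 rose by 1.39. Protective and death-promoting members were thus both among the rises. BMF, another death protein, fell by 1.49, a call lost without 10 µM replicate 3 (adjusted p = 0.0645) and in 1 other such fit.

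SQOR, the other gene of the title, encodes the mitochondrial enzyme that oxidises sulfide (chr15:45631148-45691281). It had 52.3, 53.1 and 30.4 CPM at 2 µM and 40.3, 33.7 and 39.4 CPM at 10 µM. Replicate 3 at 2 µM was the lowest of these 6 libraries and the other 2 µM libraries were the highest, and the change of -0.26 (SE 0.22) did not pass (adjusted p = 0.38). With replicates 3 of 0 and 2 µM left out it was -0.50 and passed (adjusted p = 0.0328). The promoter peak at the start of the gene (chr15:45631261-45631761) stood at 9.97, 12 and 9.68 CPM at 2 µM and at 27.0 and 27.6 CPM at 10 µM, higher by a log2 of 1.39 (SE 0.21, adjusted p = 1.6e-06), and a second one did not pass (-0.10, adjusted p = 0.60). Of 25 genes of sulfide and sulfur amino acid metabolism 12 fell and 4 rose. MAT1A and MAT2A make S-adenosylmethionine, the first in adult liver and the second elsewhere. MAT1A had 141, 103 and 170 CPM and then 10.4, 14.4 and 11.3 CPM (-3.52, SE 0.28), and MAT2A had 104, 132 and 148 CPM and then 243, 247 and 219 CPM (0.88, SE 0.19). MPST, which makes sulfide from cysteine products, fell by 1.72.

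Imprinted genes were not uniformly higher at the higher dose, and as a list they were not silent without drug. Their summed level was 5621 to 9481 CPM at 0 µM, 3204 to 5169 CPM at 2 µM and 2122 to 2357 CPM at 10 µM. Among 22 imprinted genes 13 fell and 2 rose, 59.1% and 9.09% against 21.6% and 16.8% of all genes tested. There was 1 rise in 5 of the fits, those without 2 µM replicate 2 or 3 or any 1 of the 10 µM libraries. H19, an imprinted non-coding RNA of fetal liver (chr11:1995176-2001266), had 20.9, 14.4 and 16.4 CPM at 2 µM and 0.0957, 0.288 and 0.384 CPM at 10 µM, a change of -6.03 (SE 0.48, adjusted p = 1.9e-06). At 0 µM its mean was 0.0342 CPM, so the 3 libraries with abundant H19 were those at 2 µM. MEG3 had 7.98, 7.62 and 9.87 CPM and then 0.0957, 0.404 and 1.31 CPM (-3.79, or -5.04 without 10 µM replicate 3), and PEG3, an imprinted zinc finger gene, fell by 4.26. GRB10, an adaptor of the insulin receptor, rose by 2.22 from 171, 161 and 55.4 CPM to 706, 554 and 548 CPM.

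Few germline genes had enough reads to be measured. Of 18 measured piRNA and meiosis genes (23 were left out as too low) 6 fell and 3 rose, 50% against 38.4% of all genes tested, with 3 falls without 10 µM replicate 2 and 1 rise without that library, 2 µM replicate 2 or 3, or 10 µM replicate 1. TDRD12, a piRNA factor, had 6.43, 6.79 and 4.99 CPM and then 2.06, 1.63 and 2.93 CPM (-1.46, SE 0.38), against a mean of 0.122 CPM at 0 µM, while TEX14, of the bridges between germ cells, rose by 2.55. Of 9 measured cancer-testis genes (33 were left out) 2 fell and 1 rose, 33.3% and so near the share of all genes, and none rose without 2 µM replicate 2 or 3 or any 1 of the 10 µM libraries. PRAME fell by 2.83 and PAGE1 by 3.63, and MAGEB2 rose by 2.09, a call lost in 5 fits that left out a library (adjusted p up to 0.126). Of 28 tumour suppressors often methylated in liver cancer 10 fell and 6 rose, 35.7% and 21.4% against 21.6% and 16.8% of all genes tested. Their summed level was 1711.5 to 3698.4 CPM at 0 µM, so this list as a whole was not silent without drug either. RASSF1 had 18.0, 13.9 and 13.6 CPM and then 53.9, 73.9 and 60.3 CPM (2.05, SE 0.21), TFPI2, a protease inhibitor, rose by 2.23 and HIC1, a repressor, by 1.62. GSTP1, a glutathione transferase, had a mean of 0.102 CPM at 0 µM, 5.07, 3.59 and 2.92 CPM at 2 µM and 0.0239, 0.135 and 0.647 CPM at 10 µM, a change of -3.81 (adjusted p = 0.0062), or -5.49 without 10 µM replicate 3, and it missed the threshold with DESeq2 (adjusted p = 0.0537). Of 12 measured HOX genes 3 rose and 3 fell, 25% each against 16.8% and 21.6% of all genes tested. There was 1 rise without 2 µM replicate 3 or 10 µM replicate 1 or 3.

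Among fetal and liver cancer genes 7 of 18 fell and 2 rose, 38.9% and 11.1% against 21.6% and 16.8% of all genes tested. There were 4 rises without 0 µM replicate 3 and 1 without 2 µM replicate 3. GPC3, a cell surface proteoglycan of liver cancer, fell by 2.91 and DLK1, of fetal liver, by 2.93. Of 21 targets and inhibitors of the Wnt pathway 11 fell and 3 rose, 52.4% and 14.3% against the same shares of all genes. NOTUM, a secreted enzyme that inactivates Wnt, had 259, 147 and 318 CPM and then 17.0, 16.1 and 21.4 CPM (-3.73, SE 0.30), and the target SP5 fell by 2.46. The secreted inhibitors DKK1 and DKK4 went opposite ways: DKK1 had 44.3, 43.9 and 27.2 CPM and then 281, 99.7 and 184 CPM (2.29, SE 0.35), and DKK4 fell by 4.90 (6.14 without 10 µM replicate 2). At 0 µM DKK1 had a mean of 165 CPM.

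Genes of the interferon response, which double-stranded RNA from repeats can start, were not raised as a list. Of 37 measured 13 fell and 6 rose (median -0.53), 35.1% and 16.2% against 21.6% and 16.8% of all genes tested. IFIT1 fell by 3.20 (4.07 without 10 µM replicate 3), IFI27 by 2.29, BST2 by 1.30 and TRIM22 by 2.35, while SAMD9 rose by 2.12 and OAS2, a sensor of double-stranded RNA, by 2.53, from 0.527, 0.704 and 0.234 CPM to 4.21, 2.19 and 2.08 CPM. Of 16 measured genes of NF-kappaB and inflammation 4 fell and 3 rose, 43.8% against 38.4% of all genes, with 1 rise without 2 µM replicate 3 or 10 µM replicate 1. CCL20, a chemokine, fell by 3.45 (2.75 without 2 µM replicate 3), the adhesion molecule ICAM1 by 1.34 and the inhibitor TNFAIP3 by 2.05.

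Of 28 epithelial and adhesion genes 8 fell and 5 rose, 28.6% and 17.9% against 21.6% and 16.8% of all genes tested. CDH1, E-cadherin, the adhesion protein of epithelia, had 6.23, 5.70 and 9.91 CPM at 2 µM and 0.431, 0.173 and 0.546 CPM at 10 µM (-4.25, SE 0.68). ZEB2 and SNAI1, repressors of E-cadherin, rose by 2.48 and 2.19, ZEB2 from 1.2, 1.04 and 0.384 CPM to 4.57, 6.34 and 3.76 CPM. KRT8, a keratin of liver epithelium, did not pass (-0.35, adjusted p = 0.24), and EPCAM and the integrin ITGB4 fell by 1.33 and 3.08. Of 24 measured genes of the matrix and its proteases 6 fell and 3 rose, 37.5% against 38.4% of all genes, MMP1 and MMP3 among the rises. SPARC, a matrix glycoprotein, fell by 2.93 and the protease inhibitor TIMP3 by 1.62. FN1, fibronectin, fell by 1.17 (adjusted p = 0.03), lost in 3 fits that left out a library (adjusted p = 0.101 without 2 µM replicate 3).

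Among non-coding genes SCAT8 had 3.21, 5.29 and 1.34 CPM at 2 µM and 56.5, 45.3 and 49.2 CPM at 10 µM (3.94, SE 0.40, adjusted p = 1e-05). CASC15 rose by 5.42, or 4.80 without 10 µM replicate 1 and 6.23 without 2 µM replicate 2. MIR122HG, the host transcript of the liver microRNA miR-122 (chr18:58446263-58451281), had 5.17, 5.00 and 13 CPM at 2 µM and 0, 0.0192 and 0.0607 CPM at 10 µM, a change of -7.98 (SE 0.90), or -7.39 without 2 µM replicate 3 and -9.15 without 10 µM replicate 3. The mature microRNA was not measured here. HNF4A-AS1, which lies beside and partly across from HNF4A, fell by 6.57, and since the sources used here do not name the strand setting of the counting, reads of overlapping genes on opposite strands cannot be told apart.

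Chromatin at the promoters differed between genes that rose and genes that fell. Of 19763 promoter peaks 4849 were higher at 10 µM than at 2 µM (24.5%) and 2701 lower (13.7%). Of 2244 risen genes with a promoter peak, 41.3% had only higher peaks called and 5.21% only lower ones. Of 2648 fallen genes with a peak, 18.1% had only higher and 27.1% only lower peaks. For 6055 genes whose RNA was not called the shares were 32.5% and 9.41%. About as many fallen genes had no peak called (50.1%) as risen genes (49.8%), so that RNA moved in many genes without a call at the promoter at this depth. ATAC libraries held 2896671 to 7864321 counts in peaks, 2 of them at 10 µM, and the number of fallen genes with only higher peaks, 480, was 238 without 10 µM ATAC replicate 1, as the number of higher promoter peaks went to 2368 and that of risen genes with only higher peaks from 927 to 496.

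**Figure D5:**
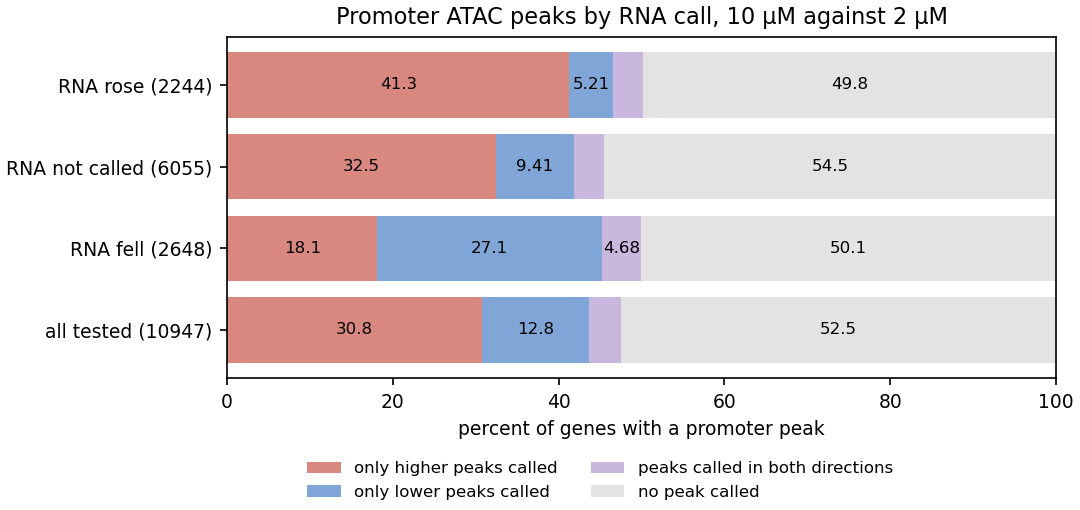
Share in percent of genes with a promoter ATAC peak that had only higher, only lower, both or no peaks called at 10 µM against 2 µM, for genes whose RNA rose, was not called, fell, and for all tested, with the number of genes in brackets. Genes with only higher peaks were 41.3% of those that rose and 18.1% of those that fell; genes with only lower peaks were 5.21% and 27.1%.

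Examples stood on both sides. Among fallen liver genes, SERPINA7, the thyroxine carrier, had a promoter peak lower by 2.36, with 12.7, 9.97 and 7.37 CPM at 2 µM and 1.74 and 1.96 CPM at 10 µM, and SERPINA10, an inhibitor of clotting factor X, had one lower by 1.18. Both peaks of C8A were lower, by 1.70 and 1.46, and so were both of APOB, by 0.50 and 1.80. All 4 promoter peaks of ACTG1 were higher, as was the peak of FOSL1, by 0.60. Other genes had RNA and chromatin in opposite directions. KIF20A, a mitotic kinesin whose RNA fell by 4.50, had a promoter peak higher by 0.49 (15.1, 17.2 and 14.6 CPM against 25 and 17.6 CPM). NREP, a neuronal regeneration protein, had RNA lower by 4.68 and 1 of its 3 promoter peaks higher by 2.99, from 2.75, 3.44 and 1.64 CPM to 19.3 and 17.8 CPM.

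Risen and fallen genes differed in length and promoter CpG as a description. The median span of the risen genes was 35872 bp, that of the fallen 21001 bp and that of all tested 23952 bp. Under 5 CpG were found in the promoters of 7.25% of risen and 15.1% of fallen genes, against 9.72% of tested genes. The part of count depth or of unspliced reads in these values was not tested.

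Markers of other cell types were checked in these cultures. Of 14 leukocyte markers 5 were measured, and PTPRC, MS4A1 and SPI1 had 0 counts in all 9 libraries. Others left out as too low had more counts at 10 than at 2 µM. Summed over the libraries at 0, 2 and 10 µM, CD68 had 9, 2 and 25 counts, CSF1R 0, 2 and 12 and ITGAM 6, 1 and 5. The summed level of the measured ones was 1126 to 1701 CPM at 2 µM and 59.9 to 92.1 CPM at 10 µM, nearly all of it LYZ, lysozyme, which HepG2 also had at a mean of 2746 CPM without drug and which fell by 4.19. Of the fibroblast markers 4 of 13 were measured and 3 fell, COL1A1 did not pass (-0.12, adjusted p = 0.91), and FAP had 0 counts in all libraries. Those left out went both ways: PDGFRA had 1, 14 and 60 counts at 0, 2 and 10 µM and THY1 0, 0 and 4. COL3A1 had 15, 4 and 3 counts, LUM 4, 2 and 0 and DES 4, 3 and 1. Of the cholangiocyte and other epithelial markers 8 of 14 were measured and 2 fell, with 1 rise without 2 µM replicate 3 or 10 µM replicate 2, and CFTR had no counts. SOX9 stood at -0.53 (adjusted p = 0.13) and passed without 0 µM replicate 3 (adjusted p = 0.0281) and with only the 2 and 10 µM libraries (adjusted p = 0.0273). Of the endothelial markers 5 of 12 were measured, 3 fell (1 without 10 µM replicate 2) and 1 rose, and STAB2 and EMCN had no counts. The riser was ESAM, a junction protein, with 122, 86.3 and 37.3 CPM at 2 µM and 348, 270 and 374 CPM at 10 µM (2.02, SE 0.34) and a mean of 12.6 CPM at 0 µM. The defining hepatocyte markers ALB, APOB and HNF4A were present in every library at both doses, at the lower levels given above at 10 µM. The part of other cell types in the changes was not tested.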

How the data were processed

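Per the labels' protocols, RNA was sequenced from TruSeq Stranded Total RNA libraries and open chromatin from Nextera ones. The authors deposited raw counts per gene and raw counts per 501 bp peak with their own annotation of peaks to promoters. HISAT2 2.2.1, HTSeq 2.0.4, DESeq2 1.42.1, DiffBind 3.12.0 and hg38 are named in the submitters' processing notes without role or order. Not given in the sources used here: strand setting and peak caller. The authors' deposited table of normalized counts, a signal divided by 1 size factor per library, served for a check only: its columns named 10 µM replicates 2 and 3 hold the counts of each other in the raw table. The exchange does not touch the group comparison.

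Of 63187 gene IDs 62666 matched a symbol. Counts of all 9 RNA libraries were fitted in edgeR 4.0.16 (R 4.3.3), with filterByExpr, TMM scaling, a mean per dose and the quasi-likelihood F-test of 10 against 2 µM, at a Benjamini-Hochberg adjusted p of 0.05 over 18999 genes. The ATAC counts were fitted in the same way. An SE was taken as the size of the log2 change divided by the root of its F statistic. A prior count of 0.125 enters fitted changes. A gene with 0 counts in a group was set against a floor of 3 counts over the whole group, as a bound, and one with 1 to 3 counts a ratio with a 95% counting interval. Code was tested on simulated counts.

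The comparison and 53 gene lists were chosen with earlier results of these data known. Genes named were BCL2A1, SQOR, DNMT1, DNMT3A, DNMT3B and UHRF1, then, among called genes whose libraries did not overlap and whose higher mean reached 1 CPM, the 12 coding and 5 other genes with the largest change and the 6 with the largest CPM difference per direction, up to 4 members per list by adjusted p, and 10 genes with promoter peaks called in the same and 5 in the opposite direction. The text gives a part of these. Further list members, genes without counts among the markers and the printed promoters were chosen after their values were seen. Alternatives were RLE scaling, total counts, no filter, only the 2 and 10 µM libraries, DESeq2 1.42.0, replicate blocks, and leaving out each library or both replicates 3 of 0 and 2 µM. Replicate numbers of the raw table were checked for pairing, and same-numbered libraries did not deviate together. Which table numbers 10 µM replicates 2 and 3 rightly is not known, so whether the samples are paired is not known either. Results for a few further genes are not reported here.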

Additional observations from a re-analysis of the deposited data

How the results depend on the processing

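Other processing changed how many genes passed more than which way they moved. Of the genes called here and in another fit, 0 had the opposite direction in every alternative run. The numbers that rose and fell were 3193 and 4112, and they were 3360 and 4014 with RLE scaling, 3783 and 3705 with total counts, 3263 and 4297 with no count filter, 3801 and 4552 with only the 2 and 10 µM libraries, 3573 and 4234 with DESeq2, and 3343 and 4296 without replicates 3 of 0 and 2 µM. Leaving out 1 library gave 2172 to 3938 rises and 3294 to 4750 falls. Total counts put the median of all genes at 0.07 against -0.02. Promoter peaks higher at 10 µM, 4849, ran from 2368 to 5536 over the fits that left out a library, risen genes with only higher peaks, 927, from 496 to 1041, and fallen genes with only higher peaks, 480, from 238 to 598, with 296 under total counts. The cause was not tested. MT-CO3 turned to 0.15 and MT-ND4 to 0.28 without replicates 3 of 0 and 2 µM. Over single libraries left out, MT-CO3 ran from -0.55 to 0.16, MT-ND4 from -0.56 to 0.28 and COL1A1 from -0.37 to 0.29, none of which had passed. By the numbers of the raw table, same-numbered libraries at 2 and 10 µM did not deviate together (correlations 0.076, -0.057 and -0.052). No 2 µM library then correlated best with its own number. With 10 µM numbers 2 and 3 exchanged the correlations were 0.076, -0.094 and 0.202, the last being the highest of 2 µM replicate 3. A replicate block gave 3515 rises and 4201 falls over all doses, 3760 and 4346 over 2 and 10 µM, and 3953 and 4545 with 10 µM numbers 2 and 3 exchanged. With that exchange BCL2A1 passed (0.77, adjusted p = 0.026), as it did in no other fit run, and so did FOS (1.25, adjusted p = 0.00209). SOX9 and NQO1 passed over 2 and 10 µM under both numberings. Depth limits genes of a few counts.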
